A study of Mus musculus with 10 samples.

Results

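The mouse genes for the enzymes and the chaperone that fold and crosslink collagen were followed in mammary epithelial cells given an Irf1 siRNA and the cytokine TGFbeta. The set was given as a list of names: the lysyl oxidases Lox, Loxl1, Loxl2, Loxl3 and Loxl4, the lysyl hydroxylases Plod1, Plod2 and Plod3, the transglutaminase Tgm2 and the collagen chaperone Serpinh1. All 10 were found by Entrez identifier among the 24454 genes of the count table. No threshold on a measured value picked them, but they were chosen with earlier results of these data known. RNA was sequenced from NMuMG/E9, a subclone, and so 1 clone, of a line from normal mouse mammary gland. The 4 groups were a control siRNA without TGFbeta (siCtr 0 d, 2 libraries), an siRNA against Irf1 without TGFbeta (siIrf1 0 d, 3 libraries), the control siRNA with TGFbeta (siCtr TGFbeta, 2 libraries) and the Irf1 siRNA with TGFbeta (siIrf1 TGFbeta, 3 libraries). Every group received siRNA at 20 nM and was collected 3 d after transfection, and the treated groups had recombinant human TGFbeta1 at 2 ng/ml for the last 2 d. The titles carry a second code that goes 1 to 1 with the replicate number, and the labels explain neither it nor whether libraries came from separate cultures. The p-values therefore speak of spread among these samples, part or all of which may be technical.

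Collagen chains are modified before they leave the cell and joined after it. Lysyl hydroxylases (Plod genes) add hydroxyl groups to lysines of the new chain in the endoplasmic reticulum, with Plod2 known for the lysines of the telopeptides at its ends, and Serpinh1, also called HSP47, holds the folded triple helix until it is exported. Outside the cell, the copper-dependent lysyl oxidases turn lysines and hydroxylysines into aldehydes that form the covalent crosslinks of collagen and elastin, while the transglutaminase Tgm2 joins glutamine to lysine side chains of matrix proteins such as fibronectin. TGFbeta is a known inducer of matrix genes during the epithelial-mesenchymal transition, in which epithelial cells lose their junctions and gain migratory traits.

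Promoter sequences from RefSeq (GRCm38.p6) matched 4 of the 10 genes, 3 that were lower with the Irf1 siRNA in untreated cells (Loxl4, Plod1 and Plod3) and Serpinh1, which was higher. They are shown because Irf1, the siRNA target, and the Smad factors of TGFbeta signalling are transcription factors with known DNA motifs. Each run is the 250 bases before the annotated start, 5′ to 3′ on the strand of the gene, and capitals mark matches on either strand to 6 searched motifs. The windows are chr19:42612807-42613056 on the minus strand for Loxl4, chr4:147936777-147937026 on the minus strand for Plod1, chr5:136986769-136987018 on the plus strand for Plod3 and chr7:99353240-99353489 on the minus strand for Serpinh1.
Loxl4: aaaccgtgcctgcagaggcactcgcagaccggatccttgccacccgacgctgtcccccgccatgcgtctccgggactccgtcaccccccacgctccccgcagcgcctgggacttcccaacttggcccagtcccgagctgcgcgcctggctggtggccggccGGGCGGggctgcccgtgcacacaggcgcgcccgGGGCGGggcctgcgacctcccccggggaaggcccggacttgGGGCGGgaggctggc
Plod1: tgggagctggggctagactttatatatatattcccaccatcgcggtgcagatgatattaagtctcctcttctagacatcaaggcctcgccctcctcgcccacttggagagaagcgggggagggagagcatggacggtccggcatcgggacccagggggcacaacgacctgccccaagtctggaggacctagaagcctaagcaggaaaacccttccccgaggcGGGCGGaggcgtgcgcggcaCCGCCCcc
Plod3: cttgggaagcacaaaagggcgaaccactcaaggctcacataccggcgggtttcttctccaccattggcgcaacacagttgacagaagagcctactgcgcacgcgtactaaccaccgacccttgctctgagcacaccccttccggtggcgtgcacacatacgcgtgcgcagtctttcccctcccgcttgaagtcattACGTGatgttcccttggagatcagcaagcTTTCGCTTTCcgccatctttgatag
Serpinh1: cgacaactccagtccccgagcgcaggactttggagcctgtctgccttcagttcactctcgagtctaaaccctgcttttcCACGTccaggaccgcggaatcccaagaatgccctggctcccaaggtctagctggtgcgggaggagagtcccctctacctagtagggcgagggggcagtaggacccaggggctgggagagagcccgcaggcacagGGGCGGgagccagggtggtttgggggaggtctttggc

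The motif of interferon regulatory factors, a pair of GAAA runs separated by any 2 bases, was found once, in the Plod3 promoter on the minus strand, 25 bases before the start. It occurred in 2.98% of 32851 mouse promoter windows of the same length. The SP1 motif GGGCGG stood 3 times in the Loxl4 window, 2 times in that of Plod1 and once in that of Serpinh1, and in 32.7% of all windows. The core ACGTG of hypoxia response elements stood once each in the Plod3 and Serpinh1 windows and in 16.6% of all windows. No match was found for the Smad palindrome GTCTAGAC (in 0.167% of all windows), the AP-1 motif TGANTCA (6.75%) or the TEAD motif GGAATG (12.6%). Matches of GGGCGG and ACGTG did not overlap the other motifs here. These are matches of letters within the window and say nothing of binding.

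Libraries held 27547649 to 67301646 counts and replicates of a group correlated at 0.9707 to 0.9948 (Pearson r of log2 CPM across genes, which are not independent replicates). Irf1, the siRNA target, fell with its siRNA from a mean of 138 to 59.4 CPM (counts scaled to an equal library total) without TGFbeta and from 109 to 41.2 CPM with it, a log2 fold change of -1.22 (SE 0.153, edgeR adjusted p = 7.95e-04) and -1.40 (SE 0.153, edgeR adjusted p = 3.48e-04). Among 7 epithelial markers, Krt18 averaged 3740 to 7550 CPM over the groups, while Epcam, Cldn3 and Cldn7 had 0 counts in every group except siIrf1 TGFbeta, where Cldn7 alone was at 0. Krt18 and Krt7 rose with TGFbeta in siCtr cells (0.95, edgeR adjusted p = 0.00499, and 2.78, adjusted p = 6.51e-05), while Cdh1, the E-cadherin gene, fell there (-0.87, adjusted p = 0.00256) and stood at 0.15 in siIrf1 cells (adjusted p = 0.516). In treated cells Cdh1 was higher with the Irf1 siRNA (0.93, edgeR adjusted p = 0.00295) and Krt18 lower (-0.88, adjusted p = 0.00839). The summed level of 7 fibroblast and pericyte markers was 0.152 to 0.196 CPM in siCtr 0 d and 0.498 to 0.879 CPM in siIrf1 0 d, and with TGFbeta 20.7 to 22.8 CPM under siCtr and 15.4 to 20.8 CPM under siIrf1. With TGFbeta nearly all of it was Pdgfrb, and Thy1 and Lum were at 0 counts in every library. Of 5 endothelial markers the sum was 0.152 to 0.157 CPM in siCtr 0 d and 0 to 0.158 CPM in siIrf1 0 d, then 5.16 to 5.92 CPM under siCtr and 1.52 to 1.86 CPM under siIrf1 with TGFbeta, nearly all of it Cdh5, with Cldn5 at 0 throughout. Of 5 myoepithelial markers it was 13.4 to 16.3 and 11.4 to 16.4 CPM, then 1.90 to 2.61 and 3.46 to 7.57 CPM, led by Krt5, which fell in both (-3.445, edgeR adjusted p = 2e-04, and -1.83, adjusted p = 0.00226). Of 6 immune markers it was 27.7 to 36.1 and 39.6 to 46.3 CPM, then 38.3 to 40.7 and 42.3 to 58.2 CPM. Csf1r led this sum in every group, and Adgre1 and Cd3e were at 0 throughout. With TGFbeta in siCtr cells Cd68 was called up (1.67, edgeR adjusted p = 0.00171) and Lyz2 down (-3.09, adjusted p = 0.0319). The part of these marker lists in the members' values was not tested. Genes of low and high GC content stood differently in the libraries: the mean log2 deviation of the lowest GC quartile minus that of the highest was -1.37 and -0.61 in siCtr 0 d, 0.742, 0.191 and 0.931 in siIrf1 0 d, -0.461 and -0.464 with TGFbeta under siCtr, and 0.659, -0.39 and 0.771 with TGFbeta under siIrf1 (replicates 1, 2 and 3). It was above 0 in 5 of the 6 siIrf1 libraries and below 0 in siIrf1 TGFbeta replicate 2 and all siCtr libraries, and results are also given from a fit with the GC and length trend removed where that mattered.

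TGFbeta raised the control cells' levels of Loxl1, Plod2, Plod1, Tgm2 and Loxl4 and lowered that of Loxl2. The rises were very unequal: Plod2 went up about as much on the log2 scale as the scarce Loxl1, whereas Plod1, Tgm2 and Loxl4 rose by less than 1 log2 unit. In edgeR's quasi-likelihood test at an adjusted p of 0.05, 5 of the 9 members tested were called up (16.1% of the 13135 genes tested were) and 1 down (16.3% were), 6 in either direction (32.5%). With the Irf1 siRNA, 7 were called up (11.6% of genes tested) and 1 down (9.71%), 8 in all (21.3%), the added ones being Loxl3 and Serpinh1. Lox was too low to be tested. Loxl1 was among the genes tested because of its level in the TGFbeta groups, and Serpinh1 because of its level in siIrf1 TGFbeta alone, so both had to differ between some groups and these counts are not support for a shared response. The median log2 fold change of the 9 was 0.80 in siCtr cells and 1.13 in siIrf1 cells, against 0.0194 and 0.0213 over all genes tested. Without siCtr TGFbeta replicate 2 the calls of Loxl2 (-0.66), Plod1 (0.87) and Tgm2 (0.78) in siCtr cells were lost. The share of all genes called in that fit is not given here. A loss over all genes therefore cannot be told from one of these members. In bulk samples, fewer cells of a type and less RNA per cell cannot be told apart.

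**Figure D1:**
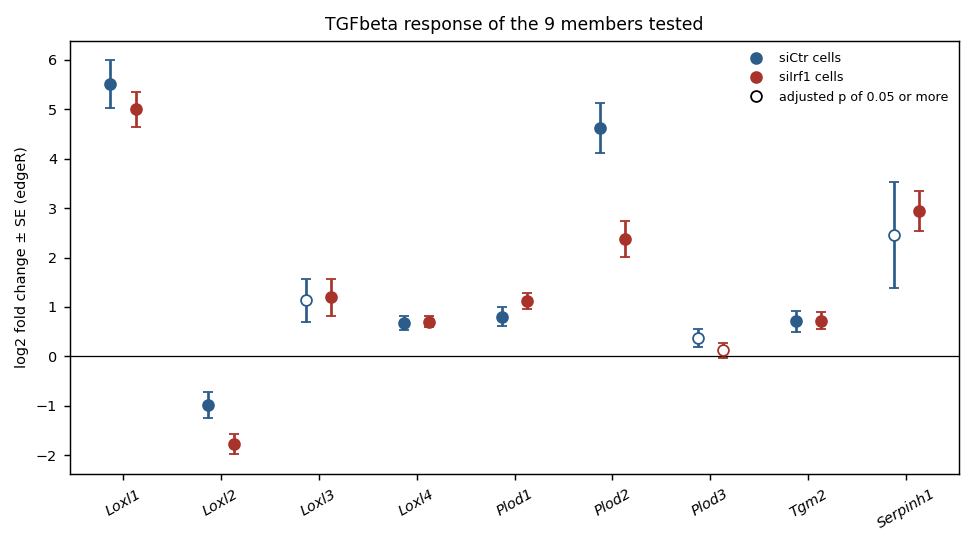
TGFbeta response of the 9 members tested, as log2 fold change with its SE (y axis) for each gene (x axis) in siCtr cells (blue) and siIrf1 cells (red); open points have an adjusted p of 0.05 or more. Loxl1 and Plod2 stand highest in siCtr cells at 5.50 and 4.62, Loxl2 alone lies below 0 in both, and the points of the 2 siRNAs lie farthest apart for Plod2.

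The Irf1 siRNA moved members in both directions. Without TGFbeta, Loxl2, Plod2 and Serpinh1 were higher with it and Loxl4, Plod1 and Plod3 lower, which made 3 called up (16.3% of genes tested) and 3 down (15.5%), 6 in all (31.8%). With TGFbeta, Serpinh1 was again higher and Loxl4 and Plod3 again lower, 1 called up (9.72% of genes tested) and 2 down (8.28%), 3 in all (18%). Serpinh1 was tested only because of its level in siIrf1 TGFbeta, so the counts and medians that hold it are no support for a shared effect. The median log2 fold change of the 9 was -0.119 without TGFbeta and -0.291 with it, against -0.0317 and 0.0465 over all genes tested. In untreated cells the calls of Loxl2, Plod3 and Serpinh1 were lost without siCtr 0 d replicate 1 (0.73, -0.57 and 5.61). They were also lost without siIrf1 0 d replicate 3 (0.87, -0.48 and 2.85). The shares of all genes called in these fits are not given here, so a loss over all genes cannot be told from one of these members. The siRNA comparisons share libraries with the TGFbeta comparisons, so their values are set side by side and not correlated.

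**Figure D2:**
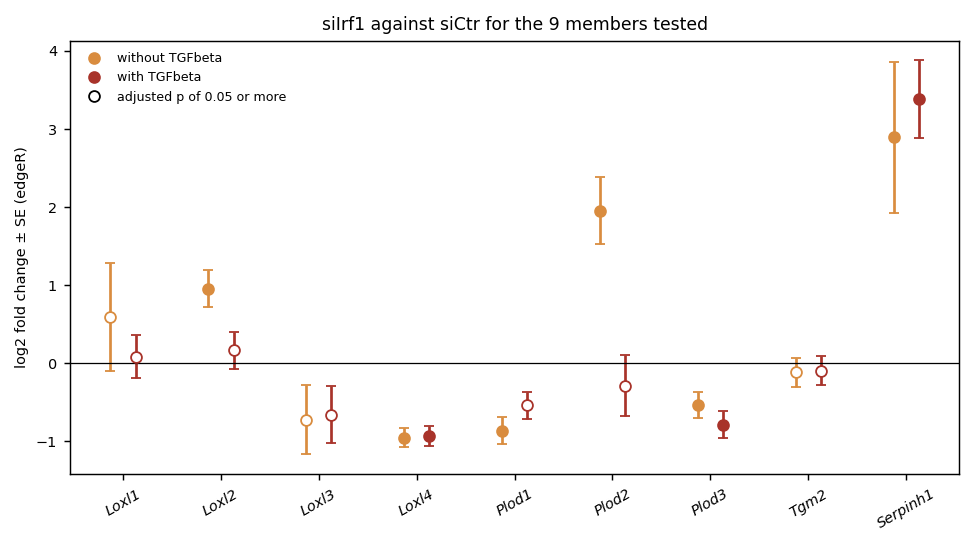
Difference between siIrf1 and siCtr cells for the 9 members tested, as log2 fold change with its SE (y axis) for each gene (x axis), without TGFbeta (orange) and with TGFbeta (red); open points have an adjusted p of 0.05 or more. Loxl4 lies near -1 in both conditions, at -0.96 and -0.93, whereas Plod2 lies at 1.95 without TGFbeta and at -0.29 with it.

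Whether the response to TGFbeta differed between the siRNAs was tested as an interaction. By edgeR 0 of the 9 members passed (4.12% of genes tested did). At an unadjusted p under 0.05 there were 2, Plod2 and Loxl2, and DESeq2 called 1, Plod2. The shares of all genes that met these other criteria are not given here, so these counts have no background beside them. For Plod2 the rise was smaller with the Irf1 siRNA (log2 interaction -2.25, SE 0.571, unadjusted p = 0.00291, edgeR adjusted p = 0.0617). It passed with DESeq2 (-2.26, adjusted p = 0.00415), with the GC and length trend removed in edgeR (-1.87, adjusted p = 0.00251; with the replicate number as a block too, adjusted p = 0.0103), without siCtr 0 d replicate 3 (-3.26, adjusted p = 0.00784) and without both siCtr 0 d replicate 1 and siIrf1 TGFbeta replicate 2 (-1.49, adjusted p = 0.00971). Over all its alternatives the adjusted p ran from 0.00251 to 0.217. For Loxl2 the interaction was -0.79 (SE 0.327, unadjusted p = 0.0362, edgeR adjusted p = 0.236, with 0.04 to 0.575 over the alternatives), and it passed only with both the block and the trend removed (-0.83).

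The lysyl oxidase family was carried by Loxl4 (chr19:42592279-42612806, minus strand, GRCm38), a secreted oxidase with scavenger receptor domains. Its level was 374 and 371 CPM in siCtr 0 d, 194.5, 197.5 and 184 CPM in siIrf1 0 d, 576.5 and 616 CPM in siCtr TGFbeta, and 318.5, 330.5 and 287 CPM in siIrf1 TGFbeta. The 4 groups did not overlap: siIrf1 0 d was lowest, then siIrf1 TGFbeta, siCtr 0 d and siCtr TGFbeta. Treated siIrf1 cells thus stayed below untreated control cells. TGFbeta raised it by 0.68 on the log2 scale in siCtr cells (SE 0.140, edgeR adjusted p = 0.00442) and by 0.70 in siIrf1 cells (SE 0.115, adjusted p = 0.00151). The Irf1 siRNA lowered it, with a log2 fold change of -0.96 without TGFbeta (SE 0.126, edgeR adjusted p = 9.6e-04) and -0.93 with it (SE 0.126, adjusted p = 0.00101). With the GC and length trend removed the TGFbeta rises no longer passed (0.32, adjusted p = 0.0945, and 0.28, adjusted p = 0.0996, in edgeR), though both did with the replicate number as a block as well (0.44, adjusted p = 0.0246, and 0.29, adjusted p = 0.0484). The siRNA difference was called under every alternative tried, at -0.62 to -0.98 without and -0.73 to -1.05 with TGFbeta.

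Per kilobase of gene length, Loxl4 made up 94.3 to 95.7% of the summed level of the 5 lysyl oxidases in siCtr 0 d, 81.9 to 85.9% in siIrf1 0 d, 97.3 to 97.7% in siCtr TGFbeta and 94.6 to 95.4% in siIrf1 TGFbeta. The sum itself was 71.9 and 72.3 CPM per kb in siCtr 0 d, 41.4 to 43.3 in siIrf1 0 d, 109 and 116 in siCtr TGFbeta and 55.8 to 63.7 in siIrf1 TGFbeta. The family as a whole therefore followed Loxl4.

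**Figure D3:**
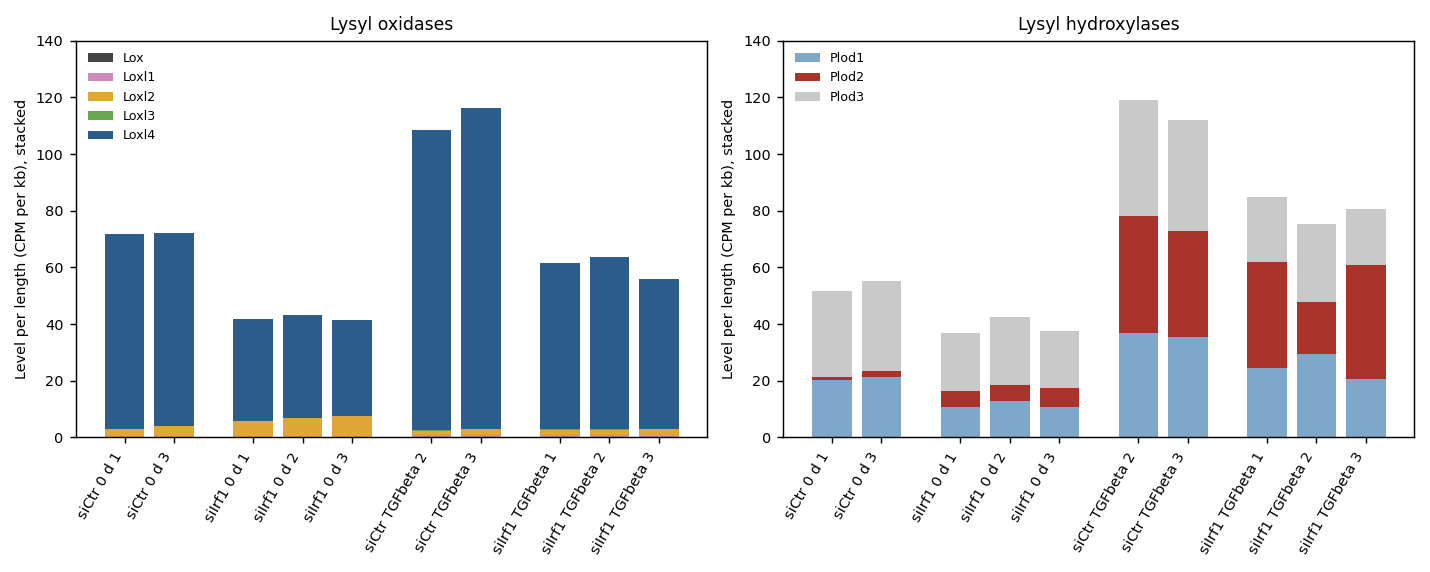
Stacked levels in CPM per kb (y axis) of the 5 lysyl oxidases (left) and the 3 lysyl hydroxylases (right) in each of the 10 libraries (x axis), with 1 colour per gene. Loxl4 fills at least 81.9% of each lysyl oxidase bar, and Plod2 goes from 1.66 and 4.17% of the lysyl hydroxylase bars in siCtr 0 d to 33.1 and 34.7% in siCtr TGFbeta.

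Loxl2 (chr14:69608692-69695834, plus strand), an oxidase that acts on basement membrane collagen and is also found in the nucleus, was the only member to fall with TGFbeta. It measured 15.1 and 20.6 CPM in siCtr 0 d, 30.1, 35.4 and 38.25 CPM in siIrf1 0 d, 7.44 and 10.7 CPM in siCtr TGFbeta, and 9.54, 9.30 and 11.55 CPM in siIrf1 TGFbeta. Untreated siIrf1 libraries were highest, and the 2 TGFbeta groups overlapped. The log2 fold change with TGFbeta was -0.98 in siCtr cells (SE 0.256, edgeR adjusted p = 0.0147) and -1.77 in siIrf1 cells (SE 0.211, adjusted p = 1.9e-04). The Irf1 siRNA raised Loxl2 in untreated cells by 0.95 (SE 0.236, edgeR adjusted p = 0.0141), and in treated cells the difference was 0.16 (adjusted p = 0.697). Its share of the lysyl oxidases per length was 4.05 and 5.51% in siCtr 0 d and 13.9 to 17.8% in siIrf1 0 d. The fall in siCtr cells did not pass without siCtr 0 d replicate 3 (-0.62), without siCtr TGFbeta replicate 2 (-0.66) or in a fit of these 2 groups alone (-0.98, adjusted p = 0.063). The rise with the siRNA did not pass without siCtr 0 d replicate 1 (0.73) or without siIrf1 0 d replicate 3 (0.87). Exons of Gm27177 on the other strand cover 5.57% of its exon bases.

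Loxl1, Loxl3 and Lox were scarce. Loxl1 (chr9:58287723-58313212, minus strand), needed for elastic fibre renewal, was at 0.0393 and 0.0606 CPM in siCtr 0 d, 0.0628, 0.113 and 0.0528 CPM in siIrf1 0 d, 2.51 and 2.40 CPM in siCtr TGFbeta, and 2.80, 3.02 and 1.96 CPM in siIrf1 TGFbeta. TGFbeta libraries all lay above untreated ones, and the siRNAs overlapped in both conditions. With only 3 counts in the untreated control group against 207 with TGFbeta, the ratio of pooled counts per effective depth was 48.2 (95% counting interval 16.2 to 235), and in siIrf1 cells, with 9 and 369 counts, it was 34.3 (17.9 to 75.6). Such intervals cover counting error only. The edgeR adjusted p was 2.09e-05 in siCtr and 7.17e-06 in siIrf1 cells, and all 19 alternatives called each rise. Loxl1 was tested because of its level in the TGFbeta groups, so these calls are no independent support for the rise. Even so, Loxl1 was at most 1.42% of the family per length.

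Loxl3 (chr6:83034205-83052566, plus strand), an oxidase of cartilage and palate development, was at 0.628 and 0.424 CPM in siCtr 0 d, 0.157, 0.294 and 0.475 CPM in siIrf1 0 d, 1.10 and 1.20 CPM in siCtr TGFbeta, and 0.679, 0.853 and 0.602 CPM in siIrf1 TGFbeta. In siCtr cells the TGFbeta libraries were above the untreated ones without passing the test (log2 fold change 1.13, SE 0.435, edgeR adjusted p = 0.0705). In siIrf1 cells it was called up (1.20, SE 0.373, edgeR adjusted p = 0.0443), but not with the replicate number as a block, which paired these 2 groups (1.21, adjusted p = 0.0668), nor with the GC and length trend removed (0.98, adjusted p = 0.0514), nor in a fit of these 2 groups alone (1.20, adjusted p = 0.071), nor in 7 of the 10 fits that left out 1 library (0.91 without siIrf1 0 d replicate 1, 1.15 without its replicate 2, 1.20 without siCtr TGFbeta replicate 2 or 3, and 1.24, 1.02 and 1.299 without siIrf1 TGFbeta replicate 1, 2 and 3). Annotation (GENCODE M21) places 11.62% of its exon bases under exons of Htra2 on the other strand, and whether the counting used strand is not given in the sources used here. Lox, the founding member of the family, had 0 counts in all untreated libraries, 1 and 4 counts in those of siCtr TGFbeta, and 0, 0 and 3 counts in those of siIrf1 TGFbeta. The 0 counts allow up to 0.0513 CPM over siCtr 0 d and 0.0263 CPM over siIrf1 0 d (3 counts over the group), so no difference was detectable at this depth.

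**Figure D4:**
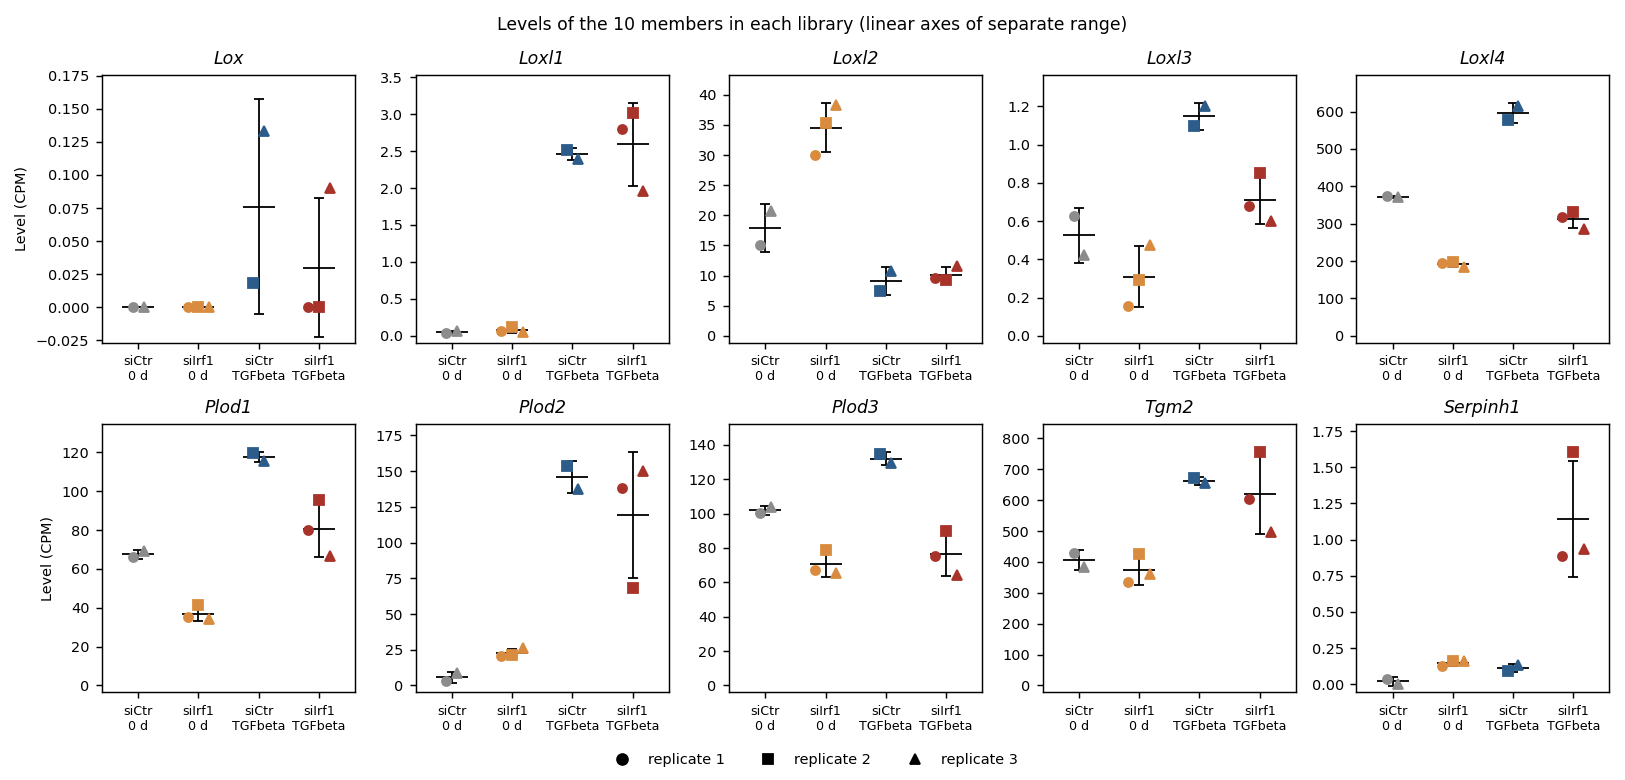
Level in CPM (y axis, linear, of separate range per gene) of each of the 10 members in every library, by group (x axis), with the symbol giving the replicate number and the line and bars the mean and SD of the group. Loxl4, Plod1 and Plod3 show lower siIrf1 groups in both conditions, Loxl2 is highest in siIrf1 0 d, and Plod2 and Loxl1 are high in the TGFbeta groups.

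Plod2 (chr9:92539636-92608428, plus strand), the telopeptide lysyl hydroxylase, showed the largest rise with TGFbeta among members above 1 CPM in every library. It measured 3.18 and 8.55 CPM in siCtr 0 d, 20.9, 21.6 and 26.1 CPM in siIrf1 0 d, 154 and 138 CPM in siCtr TGFbeta, and 138, 68.55 and 150 CPM in siIrf1 TGFbeta. Untreated control libraries were lowest, untreated siIrf1 libraries were all above them, and the treated groups overlapped, with siIrf1 TGFbeta replicate 2 apart from the rest. TGFbeta raised Plod2 by 4.62 on the log2 scale in siCtr cells (SE 0.505, edgeR adjusted p = 9.78e-05) and by 2.38 in siIrf1 cells (SE 0.369, adjusted p = 0.00121). Each of the 19 alternatives called both rises, at 4.13 to 5.64 and 2.18 to 2.66. The Irf1 siRNA raised it in untreated cells by 1.95 (SE 0.433, edgeR adjusted p = 0.00921), and with TGFbeta the difference was -0.29 (adjusted p = 0.671). The untreated difference was 1.41 without siCtr 0 d replicate 1 (edgeR adjusted p = 0.0432) and 2.91 without siCtr 0 d replicate 3 (adjusted p = 0.00146). Exons of Gm38391 on the other strand cover 6.42% of the exon bases of Plod2.

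Plod2 has the lowest GC content of the 10 genes (43.0% in its longest transcript). Replicate 2 was lowest within siIrf1 TGFbeta in both Plod2 and the GC measure, and so was replicate 1 within siCtr 0 d. Within siIrf1 0 d replicate 2 had the lowest GC measure but not the lowest Plod2. Between the untreated groups, both were lower in siCtr 0 d (GC measures of -1.37 and -0.61, Plod2 at 3.18 and 8.55 CPM). In siIrf1 0 d the GC measures were 0.742, 0.191 and 0.931, with Plod2 at 20.9, 21.6 and 26.1 CPM. Among treated libraries the order differed. The siCtr TGFbeta libraries had GC measures of -0.461 and -0.464 with 154 and 138 CPM of Plod2. In siIrf1 TGFbeta replicate 2 these values were -0.39 and 68.55 CPM. The part of GC content in the Plod2 values was not tested. With the GC and length trend removed, the siRNA difference was 1.10 in untreated cells (edgeR adjusted p = 0.00297) and -0.77 in treated cells, where it then passed (adjusted p = 0.0107; with the block too, -0.72, adjusted p = 0.0272). Per length, Plod2 was 1.66 and 4.17% of the lysyl hydroxylases in siCtr 0 d, 13.7 to 18.8% in siIrf1 0 d, 33.1 and 34.7% in siCtr TGFbeta and 24.5 to 50.2% in siIrf1 TGFbeta. The family's sum was 51.7 and 55.2 CPM per kb in siCtr 0 d, 36.9 to 42.6 in siIrf1 0 d, 112 and 119 in siCtr TGFbeta and 75.4 to 84.8 in siIrf1 TGFbeta. The share of Plod2 was thus higher in every TGFbeta library than in any untreated one, and lowest among them in siIrf1 TGFbeta replicate 2.

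Plod1 (chr4:147909753-147936776, minus strand), which hydroxylates lysines of the triple helix, was at 65.9 and 69.0 CPM in siCtr 0 d, 35.3, 41.5 and 34.3 CPM in siIrf1 0 d, 119 and 116 CPM in siCtr TGFbeta, and 79.9, 95.6 and 66.7 CPM in siIrf1 TGFbeta. Control libraries lay above siIrf1 libraries in each condition, and siIrf1 TGFbeta overlapped siCtr 0 d. TGFbeta raised it by 0.80 in siCtr cells (SE 0.195, edgeR adjusted p = 0.0105) and by 1.13 in siIrf1 cells (SE 0.160, adjusted p = 6.22e-04). The siRNA lowered it in untreated cells (log2 fold change -0.87, SE 0.175, edgeR adjusted p = 0.00583; -0.53 and still called with the GC and length trend removed). In treated cells the difference was -0.54 (SE 0.175, edgeR adjusted p = 0.0577), and it was called by DESeq2 (-0.55, adjusted p = 0.017), with the stricter filter (-0.60), with the trend removed (-0.42), and without siCtr 0 d replicate 1 (-0.59), siCtr 0 d replicate 3 (-0.59) or siIrf1 TGFbeta replicate 2 (-0.68), and without siCtr 0 d replicate 1 and siIrf1 TGFbeta replicate 2 together (-0.75). The TGFbeta rise in siCtr cells did not pass when siCtr 0 d replicate 1 was left out (0.81), nor when siCtr TGFbeta replicate 2 was (0.87).

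Plod3 (chr5:136987019-136996646, plus strand), which also adds the sugars to hydroxylysine, was the only lysyl hydroxylase not called with TGFbeta. Its level was 100.1 and 104 CPM in siCtr 0 d, 67.0, 78.7 and 65.45 CPM in siIrf1 0 d, 135 and 129 CPM in siCtr TGFbeta, and 75.1, 90.1 and 64.2 CPM in siIrf1 TGFbeta. The siIrf1 groups overlapped each other and lay below both control groups. Log2 fold changes with TGFbeta were 0.37 in siCtr cells (SE 0.186, edgeR adjusted p = 0.148) and 0.12 in siIrf1 cells (SE 0.152, adjusted p = 0.656). The Irf1 siRNA lowered it in treated cells (-0.79, SE 0.168, edgeR adjusted p = 0.01), though not without siCtr TGFbeta replicate 2 (-0.81, adjusted p = 0.0786) or 3 (-0.86, adjusted p = 0.0622). In untreated cells it was called at -0.53 (SE 0.168, edgeR adjusted p = 0.0358). That call was lost with the GC and length trend removed (-0.10, adjusted p = 0.444), with no filter (-0.50, adjusted p = 0.074), with the stricter filter (-0.50, adjusted p = 0.0509) and in 7 of the 10 fits that left out 1 library (-0.57 and -0.44 without siCtr 0 d replicate 1 and 3, -0.50 and -0.48 without siIrf1 0 d replicate 1 and 3, -0.51 without either siCtr TGFbeta library, and -0.53 without siIrf1 TGFbeta replicate 1). Of its exon bases, 11.71% lie under exons of Znhit1 on the other strand. Of the 4 promoters shown, its own holds the interferon regulatory factor motif. That match of letters occurs in 2.98% of promoter windows and says nothing of binding. The windows of Loxl4 and Plod1, also lower with the siRNA in untreated cells, lack it.

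Tgm2 (chr2:158116405-158146392, minus strand), the widely expressed tissue transglutaminase, had the highest level per length of the 10 genes in every group, at 105 to 187 CPM per kb as group means. In CPM it was 429 and 384 in siCtr 0 d, 334, 426 and 361 in siIrf1 0 d, 672 and 654 with TGFbeta under siCtr, and 603, 755 and 498 with TGFbeta under siIrf1. Treated libraries were all above untreated ones and the siRNAs overlapped in both conditions. TGFbeta raised it by 0.71 in siCtr cells (SE 0.206, edgeR adjusted p = 0.0243) and by 0.73 in siIrf1 cells (SE 0.168, adjusted p = 0.0107). The siRNA difference was -0.12 without TGFbeta (edgeR adjusted p = 0.648) and -0.10 with it (adjusted p = 0.77). The rise did not pass in siCtr cells without siCtr 0 d replicate 1 (0.83), siCtr TGFbeta replicate 2 (0.78) or siCtr TGFbeta replicate 3 (0.80), nor in siIrf1 cells without siIrf1 0 d replicate 1 (0.65), and there it was 0.39 and still called with the GC and length trend removed. Exons of Gm20412 and Rprd1b on the other strand cover 13.74 and 8.03% of its exon bases.

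Serpinh1 (chr7:99345375-99353239, minus strand), the collagen chaperone, was almost absent from these libraries. It had 1 and 0 counts in siCtr 0 d, 4, 7 and 6 in siIrf1 0 d, 5 and 4 with TGFbeta under siCtr, but 30, 111 and 31 with TGFbeta under siIrf1, the last being 0.886, 1.605 and 0.933 CPM. The treated siIrf1 libraries stood above all others. That group alone brought Serpinh1 into the test, so it had to differ between some groups and its calls are no independent support. The ratio of pooled counts per effective depth between siIrf1 and siCtr cells was 11.7 with TGFbeta (95% counting interval 6.04 to 26.1, edgeR adjusted p = 0.00172) and 8.72 without it (1.37 to 364, adjusted p = 0.0441). TGFbeta raised it in siIrf1 cells by a ratio of 8.46 (5.13 to 14.9, edgeR adjusted p = 5.27e-04), and in siCtr cells, with 1 against 9 counts, the ratio was 6.28 (0.87 to 275, adjusted p = 0.102). The siRNA call in untreated cells rests on 1 count in the control group. It was lost with DESeq2 (adjusted p = 0.0888), with the block (adjusted p = 0.066), with no filter (adjusted p = 0.0575) and in 9 of the 10 fits that left out 1 library, all but that without siIrf1 TGFbeta replicate 2, with log2 fold changes of 1.90 without siCtr 0 d replicate 3 to 5.61 without siCtr 0 d replicate 1.

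Other genes of collagen maturation were taken from lists by role. Their counts stand against 16.1% of all genes tested called up and 16.3% down with TGFbeta in siCtr cells, and 11.6% and 9.71% in siIrf1 cells, and their medians against 0.0194 and 0.0213. Fkbp10, Efemp2, Fbn1, F13a1 and Col5a1 were tested because of their level in TGFbeta groups and Tgm3 because of that in untreated groups, so the counts and medians that hold them are no support for a shared response. Of 14 genes for hydroxylation, folding and glycosylation in the endoplasmic reticulum, 12 were tested. With TGFbeta 4 were called up in siCtr cells, and 3 up and 1 down in siIrf1 cells, with median log2 fold changes of 0.0505 and 0.285. Colgalt1, which adds galactose to hydroxylysine, rose by 1.16 in siCtr cells (SE 0.182, edgeR adjusted p = 8.4e-04) and by 1.79 in siIrf1 cells (SE 0.151, adjusted p = 2.28e-05), from a mean of 391 to 873 CPM and of 200 to 691 CPM. P4ha2, a prolyl hydroxylase subunit, rose by 0.80 in siCtr cells (SE 0.175, edgeR adjusted p = 0.00601). In siIrf1 cells P4ha2 was not called (0.30, edgeR adjusted p = 0.186), except with the GC and length trend removed (0.29, adjusted p = 0.0493). P3h3 was called up in siCtr cells (1.65, edgeR adjusted p = 0.00656) and in siIrf1 cells (1.23, adjusted p = 0.0116). P3h2, a prolyl 3-hydroxylase of basement membrane collagen, was the member that fell in siIrf1 cells (-0.91, SE 0.191, edgeR adjusted p = 0.00638).

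Of 13 genes for export and propeptide removal, 8 were tested, with 4 up and 1 down in siCtr cells and 3 up in siIrf1 cells (medians 1.36 and 0.68). Bmp1, the C-propeptide protease that also cleaves pro-lysyl oxidase, rose from a mean of 58.4 to 553 CPM in siCtr cells (log2 fold change 3.24, SE 0.185, edgeR adjusted p = 2.48e-06) and from 36.5 to 254 CPM in siIrf1 cells (2.80, SE 0.149, adjusted p = 1.72e-06). Pcolce, a secreted enhancer of Bmp1, fell in siCtr cells (-1.16, SE 0.246, edgeR adjusted p = 0.00519; not called without siCtr TGFbeta replicate 3, -0.92). Its relative Pcolce2 rose in both, from 1.11 to 27.7 CPM in siCtr cells and from 0.519 to 2.84 CPM in siIrf1 cells. The rise of Pcolce2 was smaller in siIrf1 cells (log2 interaction -2.20, SE 0.364, edgeR adjusted p = 0.00886), and no other gene of the 5 pathway lists passed the interaction in that fit. Others passed under alternatives: Fn1 with DESeq2 (-2.55, adjusted p = 0.00492), Pcolce with the replicate number as a block (1.11, edgeR adjusted p = 0.0261), and Fn1, P4ha2, Col4a1 and Col7a1 with the GC and length trend removed (-2.54, -0.78, -0.77 and -1.145, edgeR adjusted p = 0.0324, 0.0141, 0.0132 and 0.0346). Bmp1 passed with the block and the trend removed (-0.64, edgeR adjusted p = 0.0371), and Fn1 also without siIrf1 TGFbeta replicate 2 (-2.16) or 3 (-3.125).

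The scaffolds and substrates of lysyl oxidases with the copper transport genes numbered 9, of which 6 were tested, with 3 called up in siCtr and 3 in siIrf1 cells (medians 2.82 and 1.34). Called under both siRNAs were Efemp2, a fibulin that brings lysyl oxidase to elastin, the microfibril gene Fbn1 and fibronectin (Fn1). Fn1 rose from a mean of 280 to 9373 CPM in siCtr cells (log2 fold change 5.07, SE 0.616, edgeR adjusted p = 1.98e-04) and from 251 to 1446 CPM in siIrf1 cells (2.53, SE 0.448, adjusted p = 0.00263). Efemp2 had 1 count in siCtr 0 d and 440 in siCtr TGFbeta, a ratio of 307 (95% counting interval 54.8 to 12200), and 3 and 138 counts in siIrf1 cells, a ratio of 38.5 (12.9 to 189). Fbn1 had 4 and 341 counts in siCtr cells, a ratio of 59.5 (23 to 220), and 0 and 121 in siIrf1 cells, at least 33.7-fold higher against a floor of 3 counts over the group. The list's medians are the same with Fbn1 at that floor.

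Of the 7 other transglutaminases, 3 were tested. Tgm1, of the epidermal cell envelope, fell from a mean of 4.68 to 0.787 CPM in siCtr cells and from 7.75 to 2.14 CPM in siIrf1 cells (log2 fold changes -2.58, SE 0.320, edgeR adjusted p = 1.95e-04, and -1.85, SE 0.241, adjusted p = 3.5e-04). Coagulation factor XIII A (F13a1) rose in siCtr cells from 3 to 144 counts, a ratio of 33.5 (95% counting interval 11.2 to 164), and had 6 and 25 counts in siIrf1 cells (ratio 3.48, 1.4 to 10.4; edgeR adjusted p = 0.217). Tgm3 was called down with both siRNAs at under 1 CPM, a call lost in siCtr cells when siCtr 0 d replicate 1 was left out (-2.14) or siCtr TGFbeta replicate 2 was (-2.73), and in siIrf1 cells with DESeq2 (-1.53), with the block (-1.58) and without any 1 of the siIrf1 0 d libraries, either siCtr TGFbeta library or siIrf1 TGFbeta replicate 1 or 2 (-1.27 to -1.69).

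Of 11 collagen chains, 8 were tested, with 7 called up in siCtr cells and 8 in siIrf1 cells (medians 4.01 and 3.35). Col7a1, the anchoring fibril chain, rose from a mean of 3.09 to 196 CPM in siCtr cells (log2 fold change 5.99, SE 0.361, edgeR adjusted p = 3.77e-06) and from 1.497 to 42.6 CPM in siIrf1 cells (4.83, SE 0.284, adjusted p = 3.35e-06). The fibrillar chain Col1a1 rose from 0.378 to 15.0 CPM and from 0.262 to 11.4 CPM, and the basement membrane chain Col4a1 from 229 to 1009 CPM and from 238 to 615 CPM. Against siCtr, 2 chains were called down with the Irf1 siRNA without TGFbeta (15.5% of all genes tested were) and 4 with it (8.28%). Of these, the untreated call of Col7a1 (-1.04) was lost without siCtr 0 d replicate 1 (-1.08) or 3 (-0.94) or siIrf1 0 d replicate 1 (-1.09) or 3 (-0.85), and the treated call of Col4a1 (-0.71) when either siCtr TGFbeta library was left out (-0.70 and -0.82) or when replicate 1 or 3 of siIrf1 TGFbeta was (-0.65 and -0.68). These lists were chosen with earlier results of the same data known, so their counts are a description. The fibroblast and pericyte and the endothelial marker sums given above were higher with TGFbeta beside them and the myoepithelial sum lower, and their part in these values was not tested.

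**Figure D5:**
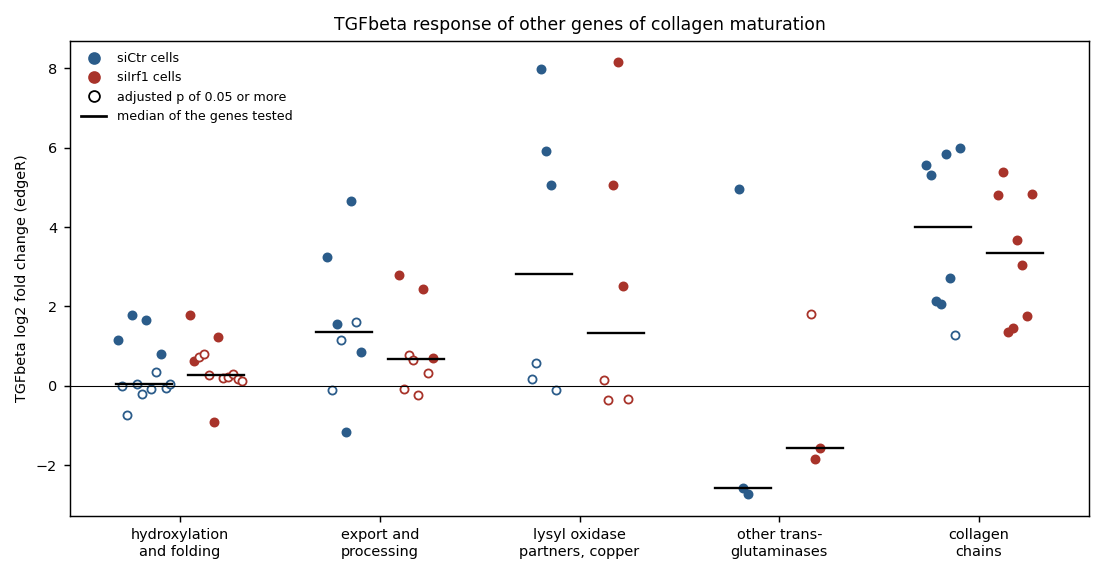
TGFbeta log2 fold change (y axis) of each tested gene in 5 lists by role (x axis), in siCtr cells (blue) and siIrf1 cells (red), with open points for an adjusted p of 0.05 or more and lines for the median of the genes tested. All collagen chains lie above 0, with medians of 4.01 and 3.35, while the hydroxylation and folding genes centre near 0, at 0.0505 and 0.285; fitted values of genes with 3 or fewer counts in a group, such as Fbn1 and Efemp2, are not precise.

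For each member called with TGFbeta in siCtr cells, the gene with the most similar profile over the 10 libraries was found by Pearson r of log2 CPM among the genes tested. It was Cttnbp2nl for Plod2 (r = 0.997), Ren1 for Loxl1 (0.995), Pkd1 for Loxl4 (0.993), Furin for Plod1 (0.992), Adprh for Tgm2 (0.992) and Ptgr1 for Loxl2 (0.982). These are the highest of many correlations over libraries that fall into 4 groups, and they are given as a description. No member was the nearest profile of another.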

How the data were processed

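The authors deposited 1 table of read counts, whole numbers by gene and library, with 10 library columns; stranded libraries were made from total RNA, per the labels' protocols, and reads were aligned with STAR to mm10 (GRCm38), per the submitters' processing notes. Which tool did the counting, whether by strand, and the STAR version are not stated in those notes. Gene length is that of the deposited table.

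The model was edgeR 4.0.16 under R 4.3.3, with TMM scaling, filterByExpr at a minimum count of 10 and the robust quasi-likelihood F test; a single fit covered the 10 libraries with 1 term per group and left 6 residual degrees of freedom, at a common BCV of 0.225. It kept 13135 of 24454 genes, and 9 of the 10 members. The Benjamini-Hochberg adjustment ran across all genes tested, separately in each of 5 comparisons, and 0.05 was the threshold. CPM are counts over the TMM effective library size, times 1000000, SE is the log2 fold change over the square root of F, and floors use 3 counts over a group. Replicate pairs differed by far more than counting noise, with a chi-square of 25.4 to 321 for each degree of freedom, and none was treated as a copy. The fit was tested on simulated data.

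The members, lists and tests were chosen with earlier results of these data known. Named were all members, Irf1, up to 3 called genes per list and TGFbeta comparison by adjusted p with any interaction call, and the nearest profiles. Alternatives were RLE size factors, no filter, a filter of 2 CPM in 3 libraries, DESeq2 1.42.0, a fit of only the 2 groups compared, a replicate block, removal of GC and length trends (splines, as offsets; GC known for 95% of genes tested), both together, and leaving out each library. Same-numbered libraries of siIrf1 0 d and siIrf1 TGFbeta deviated together from their group means (r = 0.136, 0.448 and 0.302). They were taken as pairs in the replicate block alone, from the data and not the labels, and the main fit had no pairing. Over all groups the correlations of same-numbered libraries ran from -0.393 to 0.448. Differently numbered libraries of those 2 groups ran from -0.423 to 0.28. The pair siCtr 0 d replicate 1 and siIrf1 TGFbeta replicate 2 reached 0.525, so a shared number is not a sure mark of a pair. Leaving out siCtr 0 d replicate 1 with siIrf1 TGFbeta replicate 2 was chosen after seeing the data.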

Additional observations from a re-analysis of the deposited data

How the results depend on the processing

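Over 833 combinations of a member, a comparison and an alternative setting, 722 kept direction and side of the threshold, 51 lost a call, 15 gained one, 0 reversed a called direction and 45 changed the sign of a difference that was not called. The number of members called with TGFbeta in siCtr cells (6) ran from 3, without siCtr TGFbeta replicate 2, to 6 when single libraries were left out, and that in siIrf1 cells (8) from 6 to 8. For the Irf1 siRNA without TGFbeta (6) it ran from 3, without siCtr 0 d replicate 1 or siIrf1 0 d replicate 3, to 6. With TGFbeta (3) it ran from 2 to 4 and was 5 with the GC and length trend removed. For the interaction (0) it was 1 with DESeq2, 1 with that trend removed, 2 with the trend removed and the replicate block, 1 without siCtr 0 d replicate 3, and 1 without siCtr 0 d replicate 1 and siIrf1 TGFbeta replicate 2 together, with 0 to 1 over single libraries; the cause was not tested. Where leaving out a library left 1 library in a group, that library was assumed to vary like the other groups. The shares of all genes called under these alternatives are not given here, so a change over all genes cannot be told from one of the members.

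The replicate block, whose meaning the labels do not give, ended 2 member calls, those of Loxl3 with TGFbeta in siIrf1 cells (1.21) and of Serpinh1 with the siRNA in untreated cells (2.70), and changed no other call of a member. Depth limits Lox, Loxl1, Loxl3 and Serpinh1, whose untreated groups hold few counts.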
